A study of Mus musculus with 2 samples.

Results

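The genes described here encode adhesion molecules of the immunoglobulin superfamily that sit on axons and growth cones: the NCAM pair (Ncam1, Ncam2), the L1 family (L1cam, Chl1, Nrcam, Nfasc), the contactins Cntn1 and Cntn2, and the related receptors Dscam and Alcam. They were chosen by name, as the rows of the gene tables whose Ensembl identifier belongs to one of these symbols, and the rule uses none of their measured values, though earlier results of these data were known when the set was proposed. All 10 were found among 43346 gene rows. RNA came from midbrain of B6NCrl mouse embryos at embryonic day 10.5, with no treatment or genetic change named in the labels. The labels give 1 group of 2 biological replicates, and each library joins many embryos of both sexes (69 for replicate 1, 51 for replicate 2), so differences between single embryos cannot be seen. Each library started from 10 ng of RNA longer than 200 nt, extracted with the mirVana kit, and gene rows held 45531621 and 50477634 expected counts.

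The tissue label was checked on 8 genes of midbrain identity, of which 7 reached 1 TPM in both libraries. TPM, the transcript abundance unit of the deposited tables, is a count divided by transcript length and scaled to a fixed library sum, so that levels of different genes can be set side by side. Otx2, a homeobox gene of forebrain and midbrain, stood at 138.04 TPM in replicate 1 and 122.72 TPM in replicate 2, and En2, a gene of the midbrain and hindbrain border, was lowest at 0.92 and 0.71 TPM. With 1 group there is no contrast of conditions and no test was made; values are given for each library, with mean ± SD over both (n = 2).

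These proteins carry strings of immunoglobulin domains, mostly followed by fibronectin type III repeats, and bind like or unlike partners on neighbouring cells. L1-family proteins and the transmembrane forms of NCAM cross the membrane and reach the cytoskeleton through spectrin, ankyrin or ezrin-type linkers. Contactins are held by a lipid anchor, as are some NCAM forms, and act with partners in the same membrane. In early brain they are known for axon bundling, growth cone guidance and neuronal migration, and NCAM1 is the main carrier of polysialic acid, a sugar chain that weakens adhesion.

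Several of the genes are spliced at very small exons, and the shares of these exons are part of the results further on. The coding exons below are printed 5′ to 3′ on the gene's strand, in capitals, with 12 bases of the joined neighbouring exons on each side in lower case. They were read from the GENCODE M21 transcripts, and the position is that of the capitals on GRCm38. The 30-base Ncam1 exon lies in the coding part of an immunoglobulin domain and is known as the variable alternatively spliced exon, at chr9:49550540-49550569 on the minus strand.
Ncam1 30-base exon: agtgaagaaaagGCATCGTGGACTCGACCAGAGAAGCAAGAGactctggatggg
The 15-base and 3-base Ncam1 exons, at chr9:49541888-49541902 and chr9:49531974-49531976, lie at the small-exon cluster between the fibronectin repeats.
Ncam1 15-base exon: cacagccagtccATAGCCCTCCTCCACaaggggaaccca
Ncam1 3-base exon: gccctcctccacAAGgggaacccagtg
The 2 exons that tell neuronal from other L1cam messages are 15 bases (chrX:73867022-73867036) and 12 bases (chrX:73855652-73855663) long, on the minus strand. The first lies near the start of the protein and the second in the cytoplasmic tail, where it is known to complete a sorting signal.
L1cam 15-base exon: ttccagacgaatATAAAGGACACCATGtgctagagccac
L1cam 12-base exon: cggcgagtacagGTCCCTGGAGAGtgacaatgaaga
Nrcam has exons of 30 bases (chr12:44566840-44566869) and 36 bases (chr12:44578145-44578180) on the plus strand, which the 2 Nrcam transcripts of the deposited tables hold or skip together.
Nrcam 30-base exon: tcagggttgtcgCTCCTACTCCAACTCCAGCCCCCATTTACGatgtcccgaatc
Nrcam 36-base exon: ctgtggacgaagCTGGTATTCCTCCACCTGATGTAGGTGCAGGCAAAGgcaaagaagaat
The 18-base Nfasc exon, at chr1:132637864-132637881 on the minus strand, lies early in the coding sequence, and the 39-base Alcam exon, at chr16:52268790-52268828 on the minus strand, is exon 13 of 16 in its main transcript.
Nfasc 18-base exon: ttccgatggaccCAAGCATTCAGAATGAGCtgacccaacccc
Alcam 39-base exon: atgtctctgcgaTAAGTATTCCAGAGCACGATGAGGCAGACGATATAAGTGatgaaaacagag
Each of these 9 exons has a length that is a multiple of 3, so that holding or skipping it keeps the reading frame.

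The highest of the 10 genes, Ncam1, stood 88.1 times above the lowest, Dscam, in replicate 1 and 139 times above it in replicate 2. Of the 10, 7 were at 1 TPM or more in both libraries, where 58.1% of 21474 protein-coding genes were, and the other 3 (Ncam2, Chl1, Dscam) were below it in replicate 2. Summed over the members, the level came to 173.59 and 91.01 TPM in replicates 1 and 2, of which Ncam1 alone held 40.1% and 38.1%. The NCAM pair summed to 71.68 and 35.52 TPM, the L1 family to 50.93 and 30.88 TPM, and the contactins to 33.88 and 15.50 TPM. Dscam and Alcam together held the smallest sum in both libraries, 17.10 and 9.11 TPM.

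**Figure D1:**
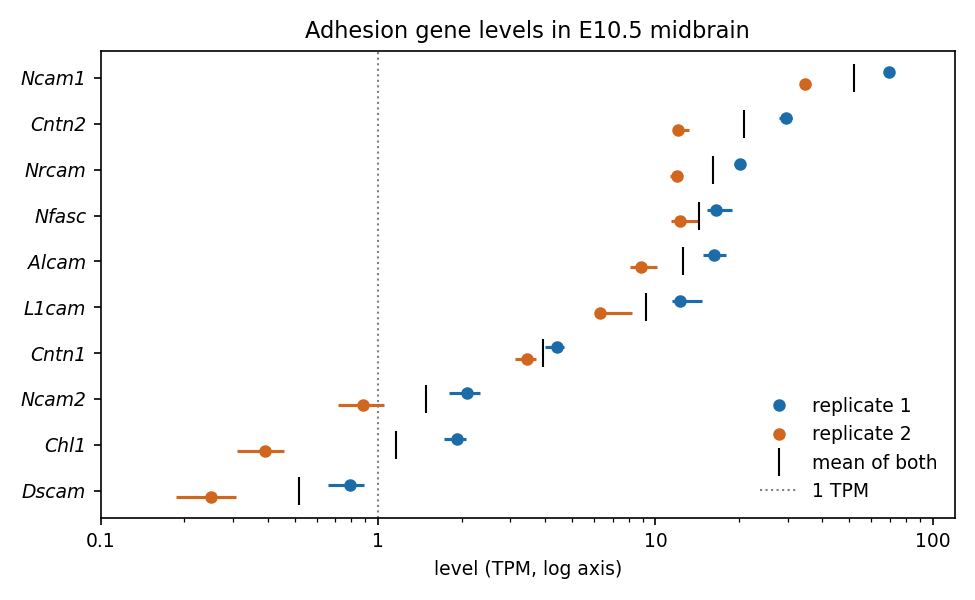
Level of each adhesion gene in TPM (log axis) in replicate 1 (blue) and replicate 2 (orange); bars are the deposited credible interval of each library and black ticks the mean of both. Every gene lies higher in replicate 1, Ncam1 is highest in both libraries, and Ncam2, Chl1 and Dscam fall below 1 TPM in replicate 2.

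Ncam1, the founding member of the NCAM family, stood at 69.59 TPM in replicate 1 and 34.64 TPM in replicate 2 (52.1 ± 24.7 TPM, SD, n = 2), from 12253 and 6922 counts. Its lower library was above the higher library of every other member, and 84.7% of protein-coding genes had a lower mean. Ncam2, its paralog, best known from olfactory axons, stood at 2.09 and 0.88 TPM (1.49 ± 0.856 TPM), from 239 and 110 counts. Within a library the level of Ncam1 was 33.3 and 39.4 times that of Ncam2.

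Nrcam, a ligand and ankyrin-binding receptor of the L1 family, stood at 20.19 and 11.96 TPM (16.1 ± 5.82 TPM). Nfasc, which encodes neurofascin, the ankyrin-bound protein of axon initial segments and nodes in mature neurons, stood at 16.56 and 12.24 TPM (14.4 ± 3.05 TPM). L1cam, the X-linked founder of the family and a receptor of growing axons, stood at 12.25 and 6.29 TPM (9.27 ± 4.21 TPM). The ranges of the 3 genes overlapped: Nrcam was 1.65 and 1.90 times L1cam, and 1.22 times Nfasc in replicate 1 but 0.977 times in replicate 2. Chl1, the close homologue of L1, stood far lower at 1.93 and 0.39 TPM (1.16 ± 1.09 TPM), from 434 and 99 counts. In both libraries Chl1 was the lowest of the L1 family, and the Nrcam level was 10.5 and 30.7 times that of Chl1.

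Cntn2, also called transient axonal glycoprotein for its early, passing presence on outgrowing axons, stood at 29.48 and 12.07 TPM (20.8 ± 12.3 TPM), from 5507 and 2628 counts. Cntn1, the contactin that later joins the junction beside the node, stood at 4.40 and 3.43 TPM (3.92 ± 0.686 TPM), from 659 and 595 counts. Cntn2 was the higher contactin in both libraries, by 6.70 times in replicate 1 and 3.52 times in replicate 2. Alcam, an adhesion receptor of axons, endothelium and blood cells, stood at 16.31 and 8.86 TPM (12.6 ± 5.27 TPM), from 1975 and 1427 counts. Dscam, a receptor in self-avoidance and in the response to netrin, was the lowest of all, at 0.79 and 0.25 TPM (0.520 ± 0.382 TPM), from 171 and 61 counts. Its deposited credible interval was 0.661 to 0.893 TPM in replicate 1 and 0.186 to 0.307 TPM in replicate 2, above 0 in both libraries.

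The order of the means was Ncam1, Cntn2, Nrcam, Nfasc, Alcam, L1cam, Cntn1, Ncam2, Chl1 and Dscam. The order within each library was the same apart from places 2 to 4, where replicate 2 had Nfasc, Cntn2 and Nrcam. Among neighbours in that order the ranges of the 2 libraries did not overlap for Ncam1 over Cntn2, L1cam over Cntn1 and Cntn1 over Ncam2. The remaining neighbours overlapped in range, every gene being higher in replicate 1. Within each library, though, Cntn2 was above Nrcam, Nfasc above Alcam, Alcam above L1cam, Ncam2 above Chl1 and Chl1 above Dscam, and only Nrcam and Nfasc changed places as neighbours. Cntn2 was above Nrcam by 12.07 to 11.96 TPM in replicate 2, with deposited intervals that overlap.

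All 10 members were higher in replicate 1 than in replicate 2. The libraries were compared by the ratio of their counts after TMM scaling, a correction for library size and composition, over the 14768 genes whose mean level reached 1 TPM. Of the 9 members in that set, 6 were at least 1.5-fold higher in replicate 1 (Chl1, Ncam2, Cntn2, Ncam1, L1cam, Nrcam), where 6.54% of all tested genes were. None was 1.5-fold higher in replicate 2, where 3.09% of tested genes were, and 3 members (Chl1, Ncam2, Cntn2) passed 2-fold in replicate 1, where 2.04% of tested genes did. The members' median ratio was 1.88, and the median of all tested genes was 0.996. A ratio above 1 was found for 9 of 9 members tested and for 49.0% of all tested genes. With 1 library on each side no p-value can be given, and the intervals below (95%, exact binomial) cover counting error only, not the spread between pools.

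Chl1 had the largest ratio of the members, 4.72 (95% interval 3.80 to 5.96), and 31 of the 14768 genes had a larger one. Ncam2 followed with 2.34 (1.87 to 2.97), Cntn2 with 2.27 (2.16 to 2.38) and Ncam1 with 1.91 (1.86 to 1.97). The ratio was 1.88 (1.71 to 2.06) for L1cam and 1.60 (1.52 to 1.68) for Nrcam, the member just inside the 1.5-fold line. Alcam lay just outside it at 1.497 (1.40 to 1.60). Its TPM ratio was larger, 1.84, and the deposited mean transcript length of Alcam was 4223 bases in replicate 1 and 4894 bases in replicate 2. Nfasc at 1.35 (1.27 to 1.44) and Cntn1 at 1.20 (1.07 to 1.34) differed least, and every interval excluded 1. Dscam, below the filter with a mean under 1 TPM, had a ratio of 3.02 (2.25 to 4.13). The ratios of the 4 lowest genes of the set (Cntn1, Ncam2, Chl1, Dscam) ranged from the smallest to the largest of all members.

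**Figure D2:**
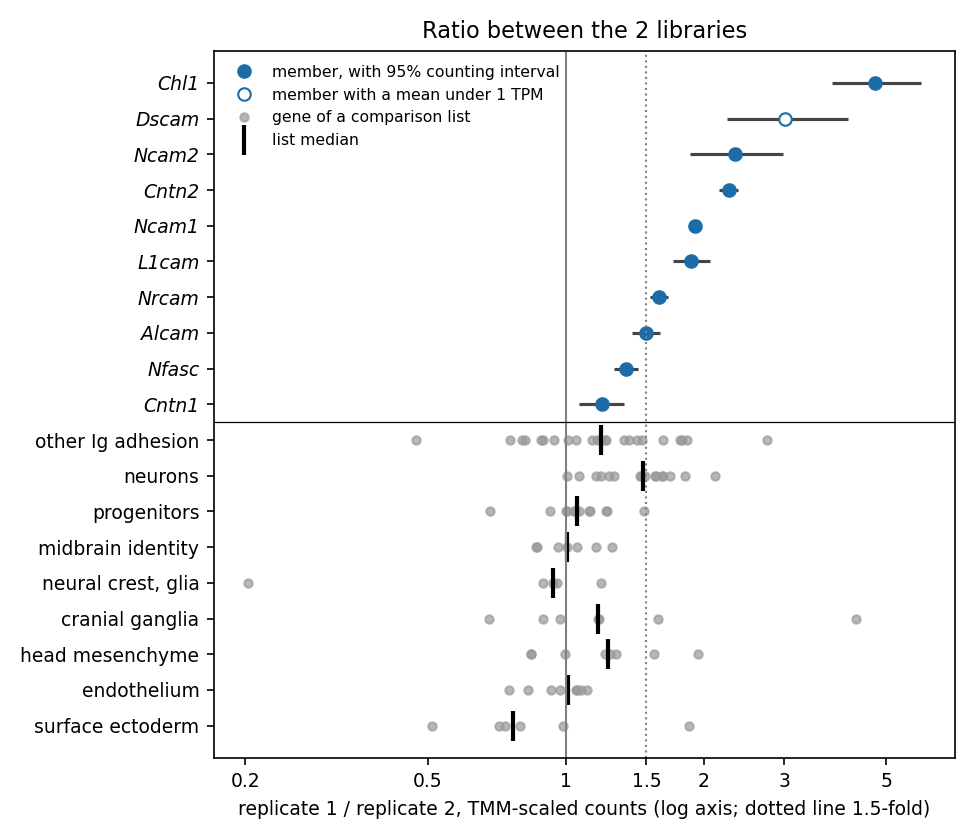
Ratio of replicate 1 to replicate 2 in TMM-scaled counts (log axis) for each adhesion gene with its 95% counting interval, and below the line for each tested gene of the comparison lists (grey points; black bar, list median). All members lie right of 1, from 1.20 for Cntn1 to 4.72 for Chl1, and the 16 neuronal genes also lie right of 1, with a median of 1.48.

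Markers of cell types and cell states differed between the libraries to unlike degrees. All 16 neuronal genes were at 1 TPM or more in both libraries and all 16 had a ratio above 1, with a median of 1.48, a range of 1.01 to 2.12 and 7 of 16 past 1.5-fold. Together they summed to 1793.24 TPM in replicate 1, against 1162.31 TPM in replicate 2. Tubb3, a tubulin of young neurons, stood at 562.42 and 363.90 TPM. The 12 genes of neuroepithelial progenitors had a median ratio of 1.06 and none past 1.5-fold, and sums of 2936.25 and 2440.57 TPM. Their ratios ranged from 0.684 for Hes1 to 1.48 for Fabp7. The 8 midbrain genes had a median ratio of 1.00 over the 7 tested, with none past 1.5-fold. In a whole tissue, fewer cells of a type and less RNA per cell cannot be told apart.

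Among the other tissues a midbrain dissection can hold, the 8 head mesenchyme genes summed to 829.67 and 582.43 TPM. Col1a1, a fibrillar collagen gene, had 149.30 and 72.56 TPM (ratio 1.95), and Col1a2 had a ratio of 1.56, the 2 of 8 past 1.5-fold. The median ratio of the list was 1.24, with 5 of 8 above 1, and Prrx1 (0.840), Twist1 (0.842) and Pdgfrb (0.999) were below 1. The 9 genes of cranial sensory ganglia summed to 35.74 and 33.94 TPM, and 2 of the 7 tested were 1.5-fold higher in replicate 1 (Avil at 1.86 and 0.30 TPM, Ntrk2 at 9.07 and 5.45 TPM). The 8 genes of neural crest and early glia summed to 69.57 and 64.50 TPM, and Sox10, the defining one, went the other way at 0.46 and 2.15 TPM. Endothelial genes (8, sums 178.62 and 189.02 TPM) had a median ratio of 1.01, and surface ectoderm genes (6, sums 48.97 and 62.65 TPM) a median ratio of 0.767. No marker of these lists was at 0 in both libraries. The part of these cells in the members' ratios was not tested.

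Of 34 other immunoglobulin-type adhesion genes, 21 were detected in both libraries, and their ratios were nearer 1: 5 of 23 tested were 1.5-fold higher in replicate 1, 1 was higher in replicate 2, and the median was 1.19. The 5 were Iglon5 (2.74), Negr1 (1.84), Cadm3 (1.80), Opcml (1.77) and Cadm4 (1.63), and the 1 in the other direction was Kirrel2 (0.471). The Kirrel2 ratio is one of counts (69 and 159). By TPM, which divides by transcript length, Kirrel2 was nearly level at 1.54 and 1.52. The highest of the 34 were Jam3 at 124.66 and 123.09 TPM, Igsf9 at 80.69 and 64.43 TPM, Cadm1 at 67.90 and 75.25 TPM and Nectin2 at 63.76 and 74.52 TPM. Each of these 4 stood above the Ncam1 level of 34.64 TPM in replicate 2, and only Jam3 and Igsf9 did so against 69.59 TPM in replicate 1. Icam5 and Thy1, adhesion genes of later neurons, were at most 0.04 TPM. The remaining contactin genes stood below Cntn2: Cntn6 at 1.90 and 1.48 TPM was the highest of the 4 others in the list, a gene named here after its value was seen.

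Ncam1 was read mostly as a transmembrane message with a short cytoplasmic tail. The transcript Ncam1-204 (18 exons, 848 codons) held 78.40% of the gene's TPM in replicate 1 and 81.35% in replicate 2, at 54.56 and 28.18 TPM. Ncam1-205 held 19.82% and 15.89%, at 13.79 and 5.50 TPM. It is the annotated transcript with the 801-base exon that lengthens the cytoplasmic tail, and the same model also holds the 30-base, 15-base and 3-base exons printed above. In transcripts that span each of these exons, the share of TPM from those holding it was 19.9% and 16.0% for the 801-base exon, and 19.8% and 15.9% for the 30-base exon. The values are tied, since only Ncam1-205 carries these exons in a long model, and they do not show whether long tail and small exons lie on the same molecules. The model also starts 230376 bases downstream of the Ncam1-204 start, so reads at the gene's start cannot be given to it.

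The message for the lipid-anchored NCAM1 form, Ncam1-201, which ends in a last exon of its own (305 bases, 725 codons), held 0% and 0.07% of the gene's TPM. It had 0 and 2.1 counts, where 3 counts would be 0.0414 and 0.0362 TPM. The 48-base and 42-base exons of the muscle-type form lie only in Ncam1-206, a short fragment with 0 counts in both libraries. For so short a model, 3 counts would already be 3.12% and 5.49% of the gene, so a share below that was not detectable at this depth.

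Ncam2 had both forms. The transmembrane transcript Ncam2-202 (837 codons) held 67.42% and 81.31%, and Ncam2-201 (727 codons), which ends in its own last exon of 2599 bases and is the lipid-anchored type, held 32.58% and 18.69%. These shares rest on 143 and 83.5 counts for Ncam2-202, and on 95.8 and 26.5 counts for Ncam2-201. The deposited intervals of Ncam2-201, 0.486 to 0.882 TPM and 0.0789 to 0.273 TPM, did not overlap. The M4 model of Ncam2-202 is 3563 bases long and the M21 model 6106 bases.

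**Figure D3:**
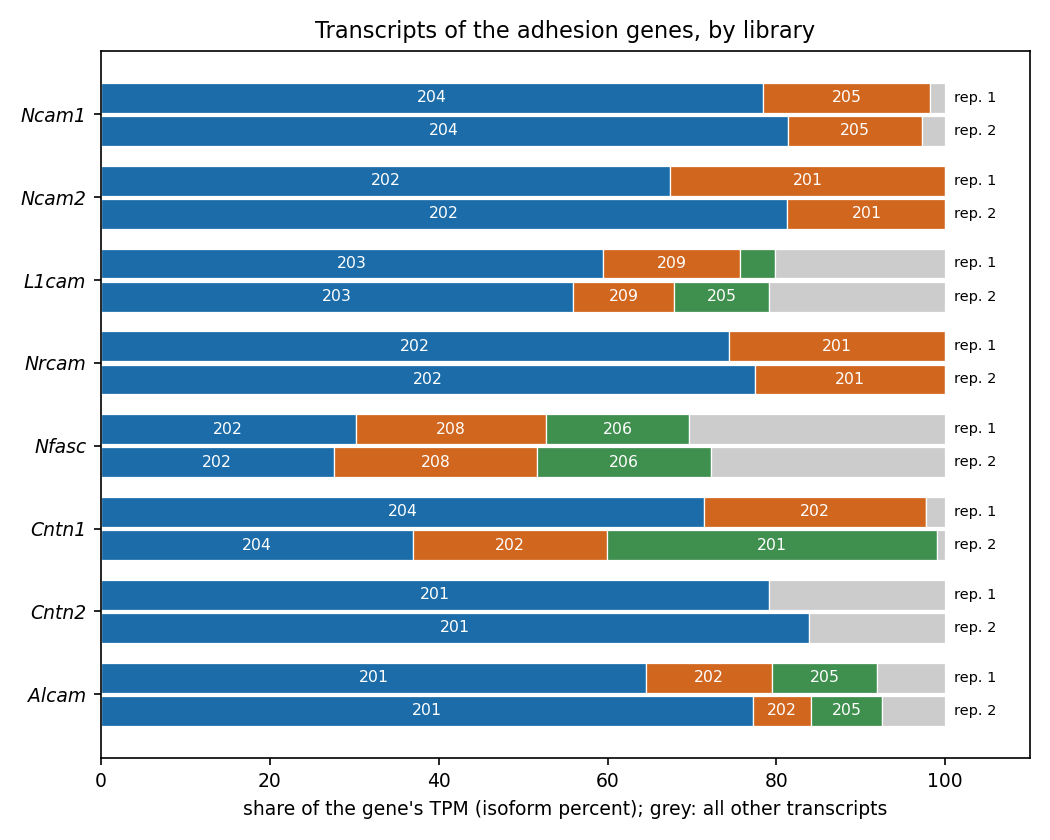
Share of each gene's TPM by transcript (isoform percent) in replicate 1 (upper bar) and replicate 2 (lower bar); colours mark the named transcripts by their GENCODE number and grey all others. Ncam1-204 holds 78.40% and 81.35% of Ncam1, and Cntn1-201 is at 0% in replicate 1 and 39.08% in replicate 2.

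The leading L1cam transcript was L1cam-203, with 59.43% and 55.92% of the gene's TPM, which holds the 15-base exon and skips the 12-base exon. L1cam-202, which holds both as in mature neurons, had 4.59% and 4.47%. Among coding transcripts spanning the sites, those with the 15-base exon held 100% and 97.7% of the TPM. The 12-base exon, held by L1cam-202 alone, was in 7.14% and 7.20%. The deposited intervals of L1cam-202 were wide, 0.0515 to 1.37 TPM in replicate 1 and 0.0253 to 0.813 TPM in replicate 2. The close values therefore do not show a precise share. The starts of L1cam-202 and L1cam-203 lie 10929 bases apart, so reads at the start weigh on this share as much as reads over the 12 bases. Transcripts not annotated as protein coding, retained introns among them, held 35.97% and 38.14% of L1cam, led by L1cam-209 at 16.27% and 12.01%, with L1cam-205 at 4.14% and 11.25%.

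Nrcam had 2 transcripts in the tables. Nrcam-202 (1186 codons), which skips the 30-base, 36-base and a 153-base exon, held 74.40% and 77.48%, and Nrcam-201 (1256 codons), which has all 3, held 25.60% and 22.52%. Exons and codons are those of M21, whose models are shorter than the M4 models behind the shares: 4469 against 7572 bases for Nrcam-201 and 6275 against 7362 bases for Nrcam-202. Nfasc was spread over more transcripts. Nfasc-202 (1240 codons) led with 30.19% and 27.60%, followed by Nfasc-208 (899 codons), which stops in a last exon of 380 bases, with 22.52% and 24.09%, and by the retained-intron transcript Nfasc-206 with 16.92% and 20.56%. Among coding transcripts that span the sites, 3 neighbouring exons of 153, 117 and 237 bases were in 63.9% and 65.0% of the TPM. The 205-base and 116-base exons upstream of them were in 36.1% and 35.0%. For the 116-base exon this share leaves out Nfasc-208, at 3.73 and 2.95 TPM. Its 380-base last exon contains those 116 bases, and it was counted as neither holding nor skipping. Of the TPM that skips the 3 exons, 2.82 and 1.82, Nfasc-205 gave 1.45 and 0.82. The Nfasc-205 model starts 104666 bases downstream of the Nfasc-202 start. The 18-base exon was in 49.5% and 46.1%, the 45-base exon in 88.1% and 87.7%, and the 51-base exon in 12.6% and 10.1%. The 2 libraries were within 4 percentage points of each other at every Nfasc exon, while the gene's level differed 1.35-fold. Exons of the same transcripts are tied, and some of these transcripts had wide deposited intervals. Those of Nfasc-205, the only source of the 51-base share, were 0.427 to 2.01 TPM in replicate 1 and 4.86e-05 to 1.10 TPM in replicate 2. Those of Nfasc-201 were 0.618 to 1.88 TPM and 0.143 to 1.29 TPM.

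Cntn2 came mainly as Cntn2-201 (1040 codons), with 79.14% and 83.82%, and transcripts not annotated as protein coding held 16.48% and 16.18%. Alcam-201 (583 codons), which holds the 39-base exon, had 64.55% and 77.21%. Alcam-202, a retained-intron transcript of 439 bases, had 14.95% and 6.85%, from 24.3 and 6.93 counts, and Alcam-205, which skips exons of 128 and 133 bases, had 12.41% and 8.49%. The 39-base exon was in 99.3% and 100% of the TPM of coding transcripts that span it. Chl1 and Dscam have 1 transcript each in the tables, so nothing can be said of their splicing.

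**Figure D4:**
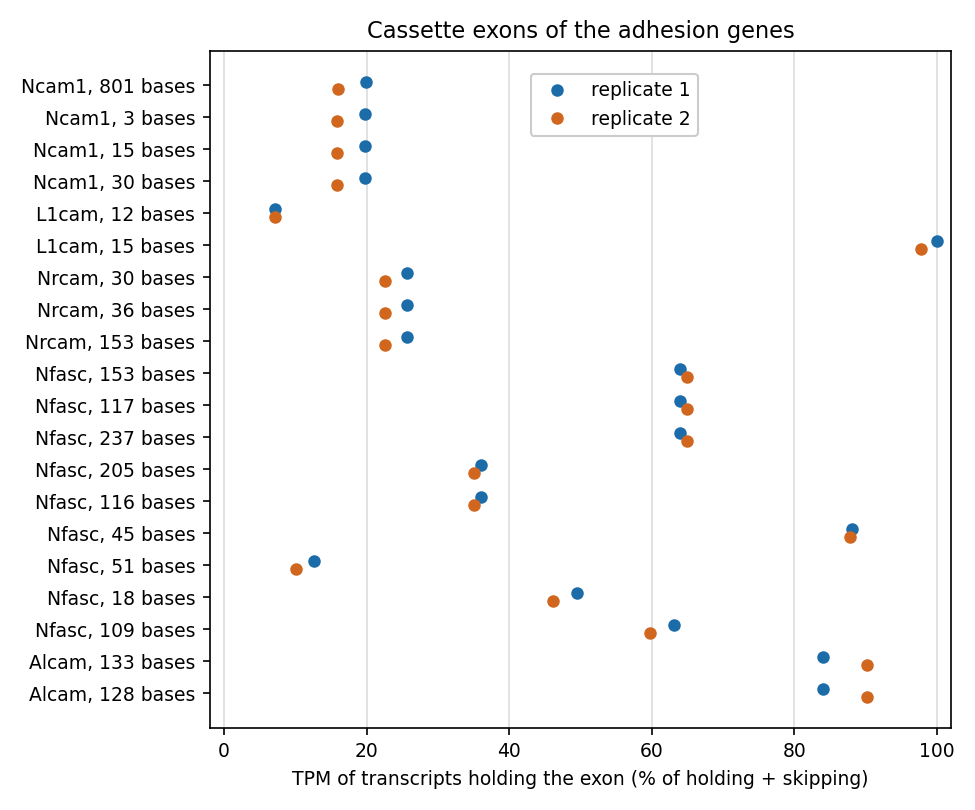
Percent of coding-transcript TPM from transcripts that hold each cassette exon, among those that hold or skip it, in replicate 1 (blue) and replicate 2 (orange). Exons carried by the same transcripts share their value, and Nfasc-208 is left out at the 116-base Nfasc exon. The 12-base L1cam exon is at 7.14% and 7.20%, the 15-base L1cam exon at 100% and 97.7%, and the Ncam1 exons at 15.9% to 19.9%.

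The Cntn1 transcripts whose shares differed most between the libraries encode the same protein. The 3 main transcripts have 1020 codons each and differ in their first, noncoding exons and at their ends, where Cntn1-202 has a last exon of 602 bases against 2441 for Cntn1-201 and 2455 for Cntn1-204, so reads at either end weigh on the shares. Cntn1-204 held 71.45% in replicate 1 and 36.95% in replicate 2, Cntn1-202 held 26.23% and 22.94%, and Cntn1-201 held 0% and 39.08%, with 0 and 250.03 counts. The deposited intervals of Cntn1-201 overlapped, 6.46e-06 to 1.13 TPM in replicate 1 and 0.487 to 2.27 TPM in replicate 2. From the posterior mean, the second estimate in the tables, its share was 8.14% and 39.66%. The starts of Cntn1-204, Cntn1-201 and Cntn1-202 lie on chr15 at 92051165, 92128188 and 92161357 on the plus strand, 77023 and 33169 bases apart.

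The 250 bases before the 3 RefSeq starts of Cntn1 (GRCm38.p6, plus strand) are printed to show how these starts differ, with CpG dinucleotides in capitals. They lie at chr15:92050915-92051164, chr15:92127878-92128127 and chr15:92161107-92161356, and the second RefSeq start is 60 bases from that of Cntn1-201.
Cntn1 start 1: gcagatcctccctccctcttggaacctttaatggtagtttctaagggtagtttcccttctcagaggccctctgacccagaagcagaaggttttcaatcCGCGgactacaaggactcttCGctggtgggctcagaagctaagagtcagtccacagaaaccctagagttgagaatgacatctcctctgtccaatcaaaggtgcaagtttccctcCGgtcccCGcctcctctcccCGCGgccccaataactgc
Cntn1 start 2: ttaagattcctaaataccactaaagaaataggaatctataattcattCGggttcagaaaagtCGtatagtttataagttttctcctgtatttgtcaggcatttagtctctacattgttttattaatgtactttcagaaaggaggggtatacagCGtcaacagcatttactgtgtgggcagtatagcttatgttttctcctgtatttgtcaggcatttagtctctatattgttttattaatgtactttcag
Cntn1 start 3: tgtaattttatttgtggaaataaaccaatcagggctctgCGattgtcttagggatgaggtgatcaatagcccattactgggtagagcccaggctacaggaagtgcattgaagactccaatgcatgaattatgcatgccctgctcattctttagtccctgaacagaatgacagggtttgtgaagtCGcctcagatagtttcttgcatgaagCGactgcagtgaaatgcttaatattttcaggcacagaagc
The first window holds 7 CpG, and the other two hold 3 each. Counted with the 50 bases after the start, the 3 windows had 9, 5 and 4 CpG, where the median of 32851 promoter windows of the same length was 7.

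RefSeq windows were found for 9 of 10 members, 13 windows in all, and Ncam1 had none. Not every window lies at the start of the gene's leading transcript. The Nfasc windows belong to starts at chr1:132707326 and chr1:132642858, while Nfasc-202 starts at chr1:132741757. The L1cam windows belong to starts at chrX:73880790 and chrX:73880834, while L1cam-203 starts at chrX:73869905. CpG counts were highest for Ncam2 (41), Nrcam (37), Dscam (26), Alcam (25) and L1cam (25 and 22, in windows that overlap), and lower for Cntn2 and Chl1 (13 each) and Nfasc (7 and 3). Ncam2 and Dscam, with many CpG, were among the 3 lowest genes by TPM. Motifs were searched on both strands. The E-box CAGATG was in 2 of 13, both of L1cam and overlapping, and in 17.2% of all, and TATAAA was in 1 of 13, the second start of Cntn1, and in 13.6% of all.

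Beside their proteins, most members share a large genomic span. The spans of other immunoglobulin-type adhesion genes were not compared. The span from first to last base exceeded that of at least 94.6% of protein-coding genes for 8 of 10 members, the exceptions being Cntn2 (33830 bases, 67.8%) and L1cam (42328 bases, 73.2%). Dscam is the longest at 579913 bases (chr16:96590840-97170752), followed by Ncam2 at 426132 bases (chr16:81200697-81626828), Ncam1 at 296790 bases (chr9:49502136-49798925), Cntn1 at 290803 bases (chr15:92051165-92341967) and Nrcam at 273080 bases (chr12:44328885-44601964). Chl1 spans chr6:103510586-103750211, Alcam chr16:52248996-52454074 and L1cam chrX:73853778-73896105. Cntn2 (chr1:132509427-132543256) and Nfasc (chr1:132564690-132741797) are neighbours on the minus strand, 21433 bases apart, with ratios between the libraries of 2.27 and 1.35. Ncam1 overlaps the antisense gene Gm11149, listed at 1.11 and 0.54 TPM, and L1cam overlaps Arhgap4 at 2.32 and 1.65 TPM. Since the sources used here do not settle whether strand was kept, reads of Ncam1 and Gm11149 cannot be told apart where they overlap.

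Of 16 membrane partners and ligands of contactins and their kin, 9 were detected and 4 were 1.5-fold higher in replicate 1, none in replicate 2, with a median ratio of 1.30 over the 9 tested. Ncan, which encodes neurocan, a matrix proteoglycan that binds NCAM1 and L1, stood at 37.76 and 12.22 TPM (ratio 2.92). Ptprz1, a receptor phosphatase that binds Cntn1, had a ratio of 1.64, the prion gene Prnp 1.59 and the matrix gene Tnc 1.51. The growth factor Mdk was the highest at 1090.22 and 1409.67 TPM (ratio 0.731), with Ptn at 59.47 and 65.56 TPM and Ptprg, a phosphatase bound by several contactins, at 27.11 and 24.78 TPM. The contactin-associated genes Cntnap5c (0.11 and 0.01 TPM) and Cntnap3 (0 in both libraries) were lowest.

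Of 9 genes for polysialic acid and related sialic acid chains, 7 were detected. In scaled counts none passed 1.5-fold and the median ratio was 1.20. That median is the ratio of St8sia1, whose TPM went the other way, 2.46 and 3.31. Cmas, which activates sialic acid, stood at 72.99 and 68.44 TPM, Nans, which makes it, at 64.25 and 67.56 TPM, and Gne, the first enzyme of that route, at 12.23 and 14.89 TPM. St8sia2, a polysialyltransferase of the embryonic brain, stood at 22.62 and 14.63 TPM (ratio 1.43). St8sia5 (0.35 and 0.46 TPM) and St8sia6 (0.23 and 0.32 TPM) were lowest. The level of Ncam1 was above that of St8sia2 in both libraries.

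Of 14 cytoskeletal anchors, 12 were detected, 2 were 1.5-fold higher in replicate 1 and the median ratio was 1.09. The larger ratio was that of Dcx, a microtubule protein that binds neurofascin and is also in the neuronal list (44.54 and 19.60 TPM, ratio 2.12). Rdx and Msn, of the ezrin family, led the list at 119.83 and 120.73 TPM and at 102.93 and 97.20 TPM, followed by the spectrins Sptan1 at 77.67 and 61.24 TPM and Sptbn1 at 63.00 and 52.53 TPM. Shtn1 (1.17 and 0.61 TPM) and Sptbn4, the spectrin of mature axon initial segments (0.44 and 0.25 TPM), were lowest. All 8 signalling partners were detected and none passed 1.5-fold (median ratio 1.09). Fgfr2 stood at 85.20 and 87.25 TPM and Fgfr1, the receptor best known to act with NCAM and L1, at 43.92 and 42.14 TPM. The kinases Ptk2 (58.71 and 54.90 TPM) and Pak1 (64.01 and 48.39 TPM) were also high, and Egfr was the lowest of the 8 by TPM, with a ratio of 1.09. Of 7 proteases that cut these proteins from the surface, 6 were detected and none passed 1.5-fold (median ratio 1.03), with Adam10 at 61.43 and 56.28 TPM, Bace1, known to cut Chl1, at 28.36 and 19.84 TPM, and Bace2 lowest at 0.77 and 0.61 TPM.

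All 14 regulators of neuronal splicing in the list were detected, with 4 past 1.5-fold in replicate 1, none in replicate 2 and a median ratio of 1.34. The 4 were Rbfox1 (2.41), Celf4 (2.28), Nova1 (1.66) and Nova2 (1.504). Ptbp1, a repressor of neuronal exons in progenitors, was the highest at 250.49 and 285.01 TPM (ratio 0.830), above Ptbp2 at 157.41 and 131.76 TPM. Elavl4 stood at 153.71 and 110.92 TPM and Elavl2 at 47.24 and 33.66 TPM. Beside these ratios the holding share of the 12-base L1cam exon was 7.14% and 7.20%, with the wide intervals of L1cam-202 given above. That of the 30-base Ncam1 exon was 19.8% and 15.9%.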

How the data were processed

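RNA of 2 midbrain libraries of 1 group was sequenced. The assay is labelled total RNA-seq, but the labels also link the SMARTer Ultra Low manual, a kit with poly(A) priming, so capture and strand are taken as unknown. Per the file headers, the gene and transcript tables use mm10 and GENCODE M4. For the aligner and the quantification program, names were not given in the sources used here; the columns are named as in RSEM output. Expected counts, as deposited, divide ambiguous reads among transcripts by estimation. The deposited TPM and FPKM values divide them by effective length (length less 99 bases). The authors also give lower and upper credible bounds for each TPM (a signal in the same units, level unstated). The deposited isoform percent is a transcript's share of its gene.

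Names, positions, exons and codons came from GENCODE M21 (GRCm38, the assembly of mm10), matched on identifiers; 42462 of 43346 genes matched. Member transcripts may differ between M4 and M21. Spike-in and tRNA rows were left out. For the ratio of the libraries, expected counts were rounded, 0.5 was added and TMM factors (1.01 and 0.988; edgeR 4.0.16) applied, over genes whose mean reached 1 TPM; called means 1.5-fold or more. Intervals are 95% exact binomial (Clopper-Pearson) and, like floors of 3 counts, cover counting error only, since PCR copies are not independent. The ratio and interval were also run on simulated Poisson counts. These hold counting error only, so that run cannot check the spread between pools.

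The members, lists and rules were chosen with earlier results of these data known. Named were all members; in each list the top 4 and bottom 2 genes by mean TPM, and those past 1.5-fold where 5 or fewer; and of members at a mean of 1 TPM or more up to 4 transcripts of at least 10%. A few others are named for splice forms, starts, roles or ratios. A gene that this rule took is not reported here; list counts include it. Protein comparisons were replaced by codon counts. Alternatives were DESeq2 1.42.0 size factors, library totals, ratios of TPM and FPKM, other folds and filters, posterior means and leaving out each replicate. Tools were R 4.3.3, matplotlib 3.10.9, scipy 1.17.1, pandas 2.3.3, numpy 2.4.6 and Python 3.11.15. RefSeq promoter windows run from 250 bases before to 50 after a start.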

Additional observations from a re-analysis of the deposited data

How the results depend on the processing

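No paired analysis was possible because there is 1 group with 2 libraries. The number of members at least 1.5-fold apart was 6 of 9 tested, beside 6.54% of tested genes higher in replicate 1. It fell to 3 at 2-fold, by construction, beside 2.04%. It was 6 with DESeq2 size factors and 7 with library totals or with no filter on low values. For these last settings the share of all genes was not computed. Over all genes, 1423 of 14768 tested were 1.5-fold apart in either direction, and 476 at 2-fold. The counts of 7862 with no filter and 471 with a mean of at least 5 TPM come from other sets of genes, whose sizes are not given. Members detected were 7, beside 58.1% of protein-coding genes. They were 8 at a minimum of 0.5 TPM and 6 at 5 TPM, and ranged from 7 to 9 when each replicate was left out in turn. The share of protein-coding genes at these other settings was not computed. The 10 members stayed higher in replicate 1 under TMM, DESeq2, library total, TPM and FPKM ratios, whose lowest ratio ranged from 1.19 to 1.28 and highest from 4.68 to 4.95. The TPM ratio was 2.01 for Ncam1, 2.44 for Cntn2, 1.69 for Nrcam and 1.84 for Alcam, whose FPKM ratio was 1.78; the cause was not tested. From posterior means, L1cam-203 held 49.7%, Cntn2-201 77.9% and Nfasc-208 22.0% on average; the cause was not tested. Depth limits Dscam, Chl1 and Ncam2, with 61 to 110 counts in replicate 2, and the shares of single small exons, which are estimates from whole transcripts.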
